A study of Caenorhabditis elegans with 18 samples.

Results

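The left arm of chromosome V is the stretch of high recombination between the left chromosome end and the gene-dense centre. It was taken here as the 500-bp windows of chromosome V that start from 500001 to 5897000 in the coordinates of the deposited table, without the 600 windows after 2300000 and up to 2600000, where input coverage was unequal between libraries. This gave 10194 of the 200538 windows of the table (5.08%), or 510 of 10030 bins of 10 kb. No measured LEM-2 value entered the choice. The deposited windows of chromosome V end at 20919568.

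ChIP-seq, the sequencing of DNA recovered with an antibody, was done for LEM-2 in formalin-fixed early embryos of Caenorhabditis elegans, next to input DNA. The embryos were collected before the bean stage, all at 20 degrees. The wild type was N2 (Bristol), and the mutants were met-2(n4256) III and set-25(n5021) III. The labels describe 3 independent biological replicates of each strain, with 1 IP (immunoprecipitated) and 1 input library each. Libraries are named here by the letter a, b or c of their column. All 3 strains were whole-embryo populations, so each value is an average over the cell types of the embryo.

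LEM-2 is an integral protein of the inner nuclear membrane, and DNA recovered with it lies close to the nuclear periphery. In worm embryos the arms of the autosomes carry most of the repeats and most of the methylation of histone H3 lysine 9, and are held at the nuclear envelope, while the centres lie more inside the nucleus. MET-2, the worm SETDB1, makes mono- and dimethylation of this lysine and SET-25 makes trimethylation. The perinuclear chromodomain protein CEC-4 binds these marks and anchors the arms. The arms of chromosome V are also known for large clusters of nematode chemoreceptor genes. The comparison asks how contact of this arm with the envelope is distributed in strains labelled as mutant for one of the methyltransferases.

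Libraries held 8725588 to 64453562 reads, and the median 500-bp window of the arm held 43 reads in the shallowest library, met-2 IP b, and 115 to 286 reads in the others. The labels were checked on chromosome III, where they place both mutations. The interval from 13287501 to 13289000 was missing from all 6 libraries labelled set-25, at 0 to 4 reads. The interval from 8376501 to 8377500 was missing from all 6 met-2 libraries at 0 to 5 reads. IP and input of set-25 columns b and c lacked it too, at 0 or 1 read. Column a labelled set-25 held 684 input reads there. Columns b and c labelled set-25 thus lacked both intervals, and whether they lack both enzymes was not tested. Pooled values of this label mix them with column a, so values are given one by one where it matters.

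Within the arm itself, 2 short intervals also separated libraries of the same strain. The interval from 1646001 to 1647500 held 0 input reads in N2 column a, and 471 and 541 in N2 columns b and c. It was also missing from columns b and c labelled set-25, with 1 and 2 input reads, but not from column a, with 791. The met-2 inputs held 660, 477 and 520 reads, so met-2 carried it in every column. The second interval, from 5080501 to 5082500, was chosen after its values were seen. It was missing from column a labelled set-25, which held 5 input reads, or 0.406% of the median window of that library. N2 inputs b and c were at 35.9% and 41.2% of their median window there, whereas N2 input a was at 115%. The met-2 inputs lay at 99.7% to 109%, and set-25 columns b and c at 66.4% and 70.8%.

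The bins that hold these 2 intervals split between libraries too, each IP library being compared with the mean input of its strain. The bin from 1640001 to 1650000 was at 0.15 in N2 column a and at 1.01 and 1.06 in columns b and c, and at 1.56 in column a labelled set-25 against 0.39 and 0.27 in columns b and c. The bin from 5080001 to 5090000 was at -0.60 in column a labelled set-25 and at 0.60 and 0.68 in columns b and c. They were the only 2 of the 510 arm bins (0.392%) whose mean log2 input differed by more than 0.3 between strains, against 0.289% of all bins. Over the whole arm, the mean of each input relative to the genome's median bin was -0.13 to -0.05 on the log2 scale in all 9 inputs.

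In N2 embryos the arm was enriched for LEM-2 at its outer end and depleted over its innermost 397 kb. From 4000001 to 4500000 only its mean was near input level, on the deposited scale. LEM-2 enrichment is the log2 IP value minus the mean log2 input of the strain, so 0 is input level and 1 is a doubling. The mean over the arm was 0.19, 0.12 and 0.10 in columns a to c, or 0.14 ± 0.05 (SD, n = 3). This mean hides a wide range. Of the 510 bins, 272 were enriched and 123 depleted in limma at a Benjamini-Hochberg adjusted p under 0.05, 53.3% and 24.1% of the arm, so 77.5% passed in either direction. Over all 10030 bins the shares were 32.3% enriched and 53.5% depleted, together 85.8%. The median arm bin was at 0.21 and the median of all bins at -0.25. After each library was centred on its median bin, 366 arm bins were enriched and 65 depleted, and over all bins 43.2% and 41.3%. Without N2 column a, the counts were 244 and 117.

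**Figure D1:**
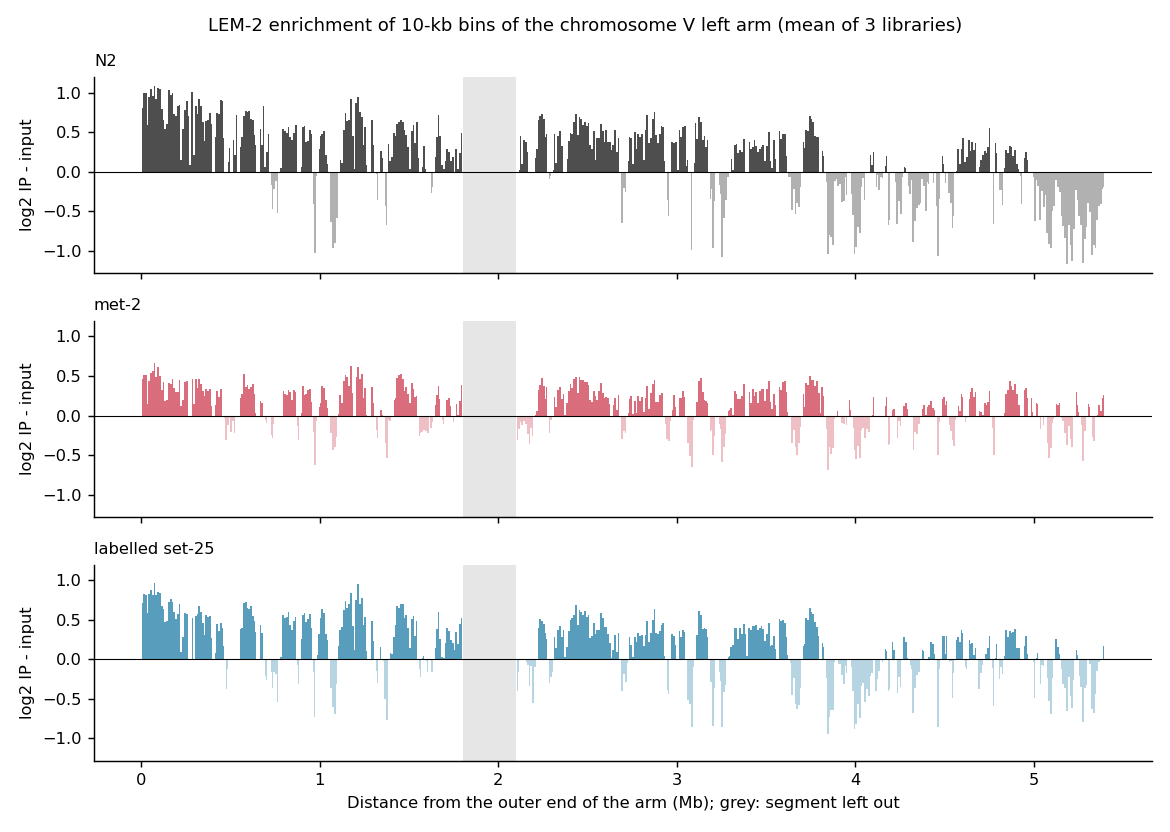
LEM-2 enrichment (log2 IP minus mean strain input, y axis) of the 10-kb bins of the chromosome V left arm in N2, met-2 and libraries labelled set-25, against distance from the arm's outer end in Mb (x axis). Values are means of 3 libraries, dark fill is above 0, pale fill is below 0, and grey marks the segment left out. N2 spans from above 1 at the outer end to below -1 at the inner end, while the met-2 profile has a smaller height. Most enriched bins of N2 stay enriched in met-2, and fewer of the depleted ones stay depleted.

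The segments of up to 500 kb show the gradient in each library. The outermost segment, 500001 to 1000000, was at 0.79, 0.64 and 0.64 in N2 columns a, b and c, and 44 of its 50 bins were enriched. The segment from 2600001 to 3000000 came next, at 0.46, 0.33 and 0.27, followed by that from 3000001 to 3500000, at 0.37, 0.30 and 0.27. These 2 neighbours in the order overlapped. The segments between 1000001 and 2300000 lay lower, with means of 0.21 to 0.26, so the decline from the outer end was not steady. The mean of the segment from 4000001 to 4500000 was near input level on the deposited scale, at 0.03, -0.02 and -0.05. Of its 50 bins, however, 21 were enriched and 17 depleted. That from 4500001 to 5000000 lay below input, at -0.22, -0.23 and -0.27. On median-centred libraries both lay above input, at 0.34, 0.23 and 0.23 and at 0.09, 0.02 and 0.01. On the deposited scale the segment from 5000001 to 5500000 was at 0.13, 0.05 and 0.02. The innermost segment, 5500001 to 5897000, was lowest, at -0.66, -0.55 and -0.56, with 37 of 40 bins depleted and 0 enriched, and was at -0.35, -0.30 and -0.28 on median-centred libraries.

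**Figure D2:**
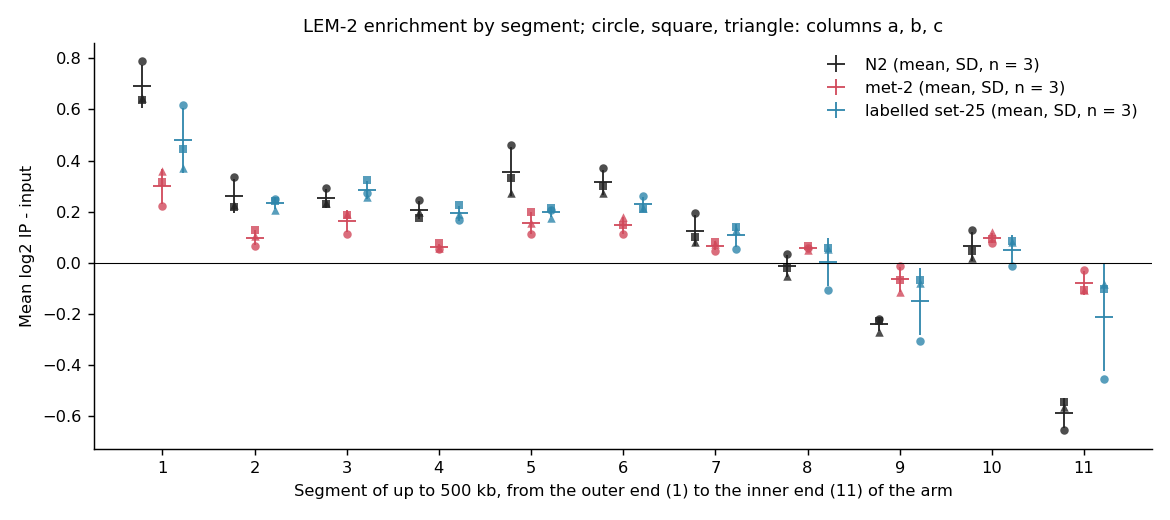
Mean LEM-2 enrichment (log2 IP minus input, y axis) of 11 segments of up to 500 kb from the outer to the inner end of the arm (x axis), for each library, with the mean and SD of 3 libraries per strain label. The N2 means run from 0.69 to -0.59, the met-2 means from 0.30 to -0.08, and in the innermost segment column a labelled set-25 lies at -0.46 beside N2 while columns b and c lie at -0.10 and -0.08.

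The step from arm to centre in LEM-2 did not fall on the recombination boundary that ends the arm. In steps of 100 kb, N2 was at -0.00 ± 0.03 from 5400001 to 5500000 and at -0.52 ± 0.04 from 5500001 to 5600000 (SD, n = 3). It then stayed between -0.49 and -0.96 over the following steps, on both sides of the boundary. The last bin inside the arm, 5890001 to 5897000, was at -0.19 ± 0.08, and the bin just outside, 5897001 to 5900000, at -0.09 ± 0.05 (SD, n = 3). The 100 kb on either side overlapped, at -0.57 ± 0.09 inside and -0.50 ± 0.08 outside.

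**Figure D3:**
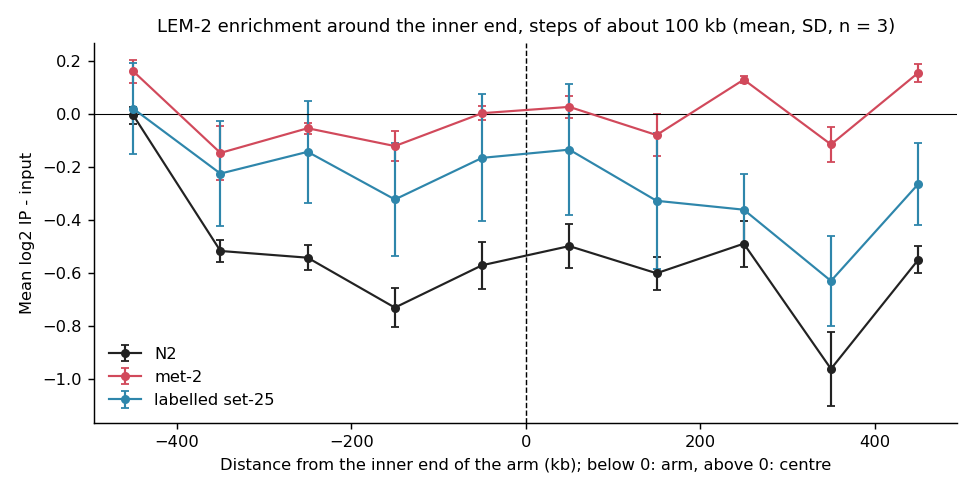
Mean LEM-2 enrichment (log2 IP minus input, y axis; SD, n = 3) in steps of about 100 kb around the inner end of the arm (distance in kb, x axis; the dashed line is the boundary). N2 falls from -0.00 to -0.52 between the leftmost steps and stays between -0.49 and -0.96 across the boundary, while met-2 stays between -0.15 and 0.16.

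On a finer scale, runs of enriched bins in N2 are called domains here, and runs of depleted bins are called gaps. Neighbouring domains were often parted only by bins outside any gap. For example, a bin neither enriched nor depleted parted the domains that start at 2880001 and 3050001. The number and length of domains thus depend on the threshold. Runs of at least 3 consecutive enriched bins formed 33 domains with 233 bins, 45.7% of the arm, and a median length of 60 kb. Runs of depleted bins formed 13 gaps with 84 bins and a median length of 40 kb. Runs outside the arm were not counted, so these counts are not particular to the arm as far as tested. In the other autosomal arms 69.6% of bins were enriched, against 53.3% here. Runs that reach an end of the arm were cut there. The longest domain, 500001 to 720000, opened the arm at 0.87 ± 0.07 (SD, n = 3). The domains from 2880001 to 3040000, 3050001 to 3180000 and 3320001 to 3430000 were at 0.51 ± 0.08, 0.42 ± 0.07 and 0.54 ± 0.05, and that from 800001 to 900000 at 0.70 ± 0.11. The longest gap was the inner end itself, 5630001 to 5897000, at -0.64 ± 0.08. The gap from 1550001 to 1600000 lay among enriched domains and was at -0.70 ± 0.09 (SD, n = 3). Without N2 column a there were 30 domains and 14 gaps. On median-centred libraries there were 30 domains with 340 bins and 8 gaps with 38.

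Single bins reached about 2-fold in either direction. The highest was the bin from 570001 to 580000, at 1.19, 1.05 and 1.02 in columns a to c. The other 4 highest, spaced by at least 100 kb, began at 780001, 670001, 1710001 and 940001 and were at 0.90 or above. The lowest, from 5680001 to 5690000, was at -1.40, -1.05 and -1.06, and the next began at 3750001, 4960001, 5820001 and 4490001 and lay between -1.08 and -1.04. All 10 bins passed in limma at adjusted p under 0.05 under every alternative run with these bins. At 500 bp, 50.8% of the arm's windows were above input in all 3 N2 libraries and 23.6% below it in all 3. These shares were not computed over all windows of the table, and the 3 values of a window share 1 mean input.

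Among the 10 autosomal arms, the V left arm had the lowest mean in N2. The left arm of II came next, at 0.23 ± 0.06 (SD, n = 3), with 0.30, 0.19 and 0.19 in columns a to c. The right arm of chromosome V had the highest mean, at 0.59 ± 0.11 (SD, n = 3). From the highest mean down, the V left arm ranked 6 of 10 in met-2 and 7 of 10 in libraries labelled set-25. Per library, the V left arm minus the mean of the 9 other arms was -0.34, -0.26 and -0.24 in the order of the columns. Of the bins of the right arm of V, 84.0% were enriched, against 53.3% here. Without its innermost segment, an alternative chosen after seeing the data, the V left arm was at 0.20 ± 0.05 (SD, n = 3) and its distance from the other arms was -0.27 to -0.18.

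In met-2 embryos the gradient along the arm was smaller than in N2 from both ends: most bins of the outermost segment fell and most bins of the innermost segment rose, while the arm means overlapped. The arm mean was 0.08, 0.11 and 0.10 in columns a to c, or 0.09 ± 0.02 (SD, n = 3), and it overlapped N2 (difference -0.04; exact two-sided permutation p = 0.2, adjusted 0.27). Without the innermost segment the arm means were 0.09, 0.12 and 0.12 in met-2 and 0.26, 0.18 and 0.16 in N2, with no overlap (exact permutation p = 0.1, the smallest possible). This alternative was chosen after seeing the data and leaves out the segment with the largest rise in met-2. Its p is therefore no separate support for a lower arm mean. The outer 255 bins exceeded the inner 255 bins by 0.08, 0.16 and 0.17 in met-2, against 0.48, 0.42 and 0.44 in N2. No met-2 value reached an N2 value, and the mean difference was -0.31, so that 30.8% of the N2 gradient was left. The spread over the arm's bins, as an SD, was 0.18, 0.27 and 0.36 in met-2 and 0.54, 0.45 and 0.46 in N2, again with no overlap. Both measures had a p of 0.1 in the two-sided exact permutation test, the smallest that 3 against 3 libraries allow, and 0.19 after Benjamini-Hochberg adjustment over 15 comparisons. The spread was lowest in met-2 column a and highest in column c, and in this measure the met-2 libraries varied among themselves more than the N2 libraries. Since 1 mean input serves all 3 IP libraries of a strain, their values are not fully independent.

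**Figure D4:**
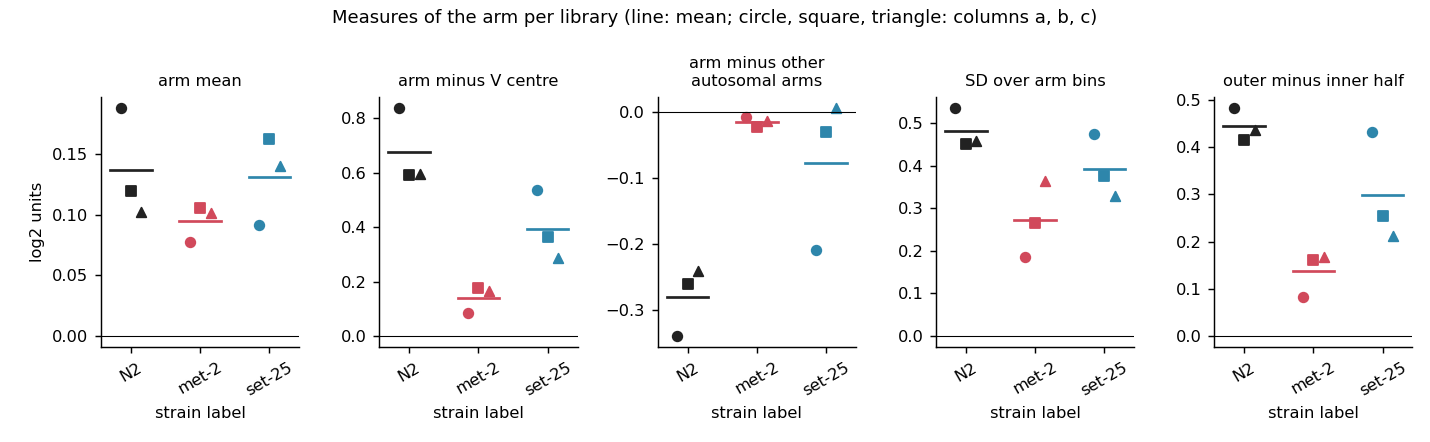
The 5 measures of the arm, in log2 units (y axes), for each library by strain label (x axes), with the mean as a line. The met-2 libraries lie apart from the N2 libraries in every measure but the arm mean, where both lie between 0.08 and 0.19, and column a labelled set-25 lies nearest N2 in the distance from the V centre, the distance from the other arms, the SD and the outer minus inner difference.

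By limma with Benjamini-Hochberg adjustment over the genome, 198 of the 510 arm bins differed between met-2 and N2, 71 higher and 127 lower in met-2. That is 38.8% of the arm, against 68.0% of all bins, with 45.6% of all bins higher and 22.3% lower. The difference from N2 was -0.09 in the median arm bin and 0.20 in the median of all bins. Median-centring moved the median bin by -0.21. Then 278 arm bins were lower and 28 higher, and the arm mean differed from N2 by -0.25 with no overlap (exact permutation p = 0.1, the smallest possible). Over all bins 34.2% were then lower and 29.8% higher. Without N2 column a, 126 bins passed on the deposited scale, 52 higher and 74 lower, and without met-2 column a 128, 45 higher and 83 lower.

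The changed bins were sorted along the arm. In the outermost segment 42 of 50 bins were lower in met-2 and 0 higher, and its mean was 0.69 ± 0.09 in N2 against 0.30 ± 0.07 in met-2 (SD, n = 3). In the innermost segment 38 of 40 bins were higher and 0 lower, and its mean was -0.59 ± 0.06 in N2 against -0.08 ± 0.05 in met-2 (SD, n = 3). From 4000001 to 4500000, 5 of 50 bins were higher and 0 lower, with segment means of -0.01 in N2 and 0.06 in met-2. Library values of the strains did not overlap in 9 of the 11 segments, with 6 lower and 3 higher in met-2. Segments outside the arm were not counted, and 68.0% of all bins differed between these strains in limma, so this count is not particular to the arm as far as tested. On median-centred libraries the segment differences from 4000001 to 5500000 changed sign, from 0.07, 0.17 and 0.03 to -0.14, -0.03 and -0.18. The innermost segment differed by 0.51 on the deposited scale and 0.30 on median-centred libraries, and the outermost by -0.39 and -0.60.

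**Figure D5:**
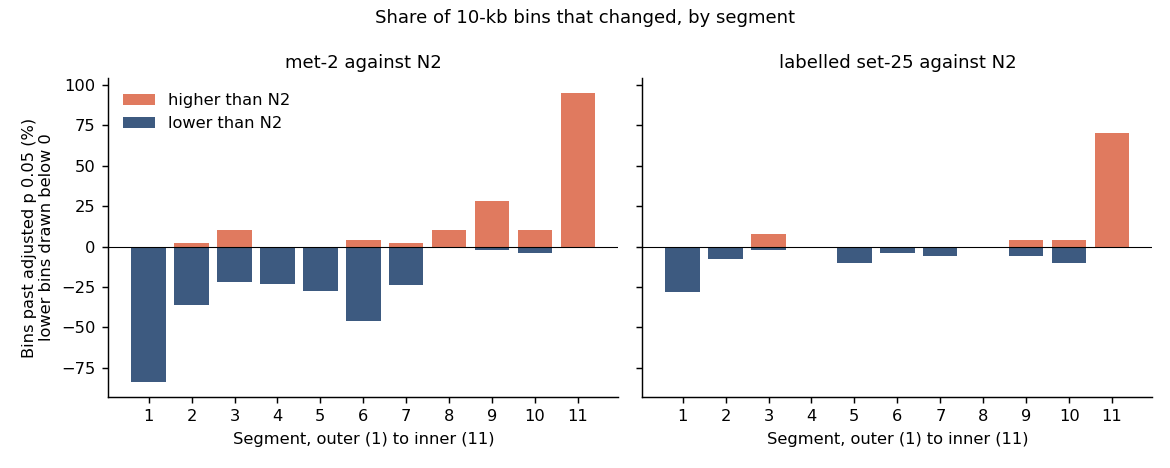
Share of the 10-kb bins of each segment (x axis, outer to inner) that were higher than N2 or lower than N2 (y axis, percent, lower drawn below 0) in limma at adjusted p under 0.05, for met-2 and for libraries labelled set-25. Lower bins fill the outer end and higher bins the innermost segment, with 42 of 50 and 38 of 40 bins in met-2 and 14 of 50 and 28 of 40 bins in libraries labelled set-25.

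The bins with the largest changes show the same pattern. The bin from 950001 to 960000 was at 1.06, 0.86 and 0.76 in N2 and at 0.22, 0.21 and 0.37 in met-2, a change of -0.62 (SE 0.11, limma adjusted p = 0.000459). The bin from 650001 to 660000 fell by 0.62 and that from 780001 to 790000 by 0.54, and both kept values of 0.30 or more in every met-2 library. The bins that start at 550001 and 1180001 fell by 0.51 and 0.47 and also stayed above input. The bin from 2620001 to 2630000, next to the segment left out, fell by 0.53, from 0.50, 0.40 and 0.45 to -0.13, -0.05 and -0.04, which is below input on the deposited scale only. On median-centred libraries its met-2 values were -0.10, 0.03 and 0.06. The bin from 2080001 to 2090000 was at 0.29 to 0.37 in N2 libraries and -0.39 to -0.08 in met-2, where column c was at 0.02 on median-centred libraries. The bin from 3570001 to 3580000 went from input level, -0.02 ± 0.08, to -0.51 ± 0.19 (SD, n = 3).

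Among rises, the bin from 5680001 to 5690000, the lowest of the arm in N2, was at -0.23, -0.34 and -0.55 in met-2, a change of 0.80 (SE 0.18, limma adjusted p = 0.00147). The bin from 5820001 to 5830000 rose by 0.78, from -1.05 ± 0.23 to -0.27 ± 0.14 (SD, n = 3). The bins that start at 4490001, 4960001, 1570001, 4370001, 3750001 and 4820001 rose by 0.45 to 0.61. In all 8, each met-2 library remained below input. On median-centred libraries the 16 named bins kept their direction and 12 of them passed.

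Most bins enriched in N2 were also enriched in met-2, though their height differed, whereas bins depleted in N2 were shared less often. Tested against its own input, met-2 had 229 enriched arm bins, 44.9% against 22.4% of all bins, and 70 depleted ones, 13.7% against 30.0%. Of the 272 bins enriched in N2, 219 were enriched in met-2 (80.5%), and these made up 95.6% of the met-2 enriched bins. Of the 123 bins depleted in N2, 58 were depleted in met-2 (47.2%), 82.9% of the met-2 depleted bins. Only 2 N2 depleted bins were enriched in met-2, and 0 N2 enriched bins were depleted. The overlap of these calls over all bins was not computed, so it is not particular to the arm as far as tested. Without met-2 column c, met-2 had 126 enriched and 9 depleted bins, so the count of depleted bins rests on that library, whose profile had the largest spread.

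The whole domains and gaps differed in how much was kept. The longest N2 domain, 500001 to 720000, was at 0.31, 0.43 and 0.52 in met-2, with 21 of its 22 bins still enriched over input and 21 lower than in N2. The domain from 2880001 to 3040000 kept most of its height, at 0.36 ± 0.10 against 0.51 ± 0.08 (SD, n = 3), with 3 of 16 bins lower. The gap from 4140001 to 4200000 was at -0.32 ± 0.10 against -0.38 ± 0.06 (SD, n = 3), with 0 of 6 bins changed. All 27 bins of the gap that ends the arm were higher in met-2. Of these 27, tested against the met-2 input, 7 were depleted and 2 enriched. In steps of 100 kb, met-2 stayed between -0.15 and 0.16 on both sides of the inner boundary.

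Across the 510 bins, the mean met-2 profile had a Pearson correlation of 0.865 with N2 and a slope of 0.48. Values over the 3152 bins of the other autosomal arms were 0.858 and 0.50. These bins share libraries and neighbours, so the values are descriptions. Within N2 the 3 libraries correlated at 0.95 to 0.98 over the arm, and within met-2 at 0.91 to 0.94. Bins 100 kb apart correlated at 0.34 to 0.37 in N2 libraries and at 0.01 to 0.07 in met-2 libraries, while bins 10 kb apart still correlated at 0.64 to 0.68 in met-2 against 0.72 to 0.76 in N2. The likeness of bins 100 kb apart was thus low in every met-2 library, and that of neighbours was not.

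The V left arm differed less from N2 than the mean of the other arms did. In met-2 its distance from that mean was -0.01, -0.02 and -0.01, against -0.34, -0.26 and -0.24 in N2. The difference between strains was 0.27, with no overlap, at an exact permutation p of 0.1, the smallest possible (adjusted 0.19). In the right arm of V, 268 of 387 bins were lower in met-2 and 0 higher, and its mean was 0.59 ± 0.11 in N2 against 0.16 ± 0.03 in met-2 (SD, n = 3). The distance of the V left arm from the V centre was 0.84, 0.59 and 0.60 in N2 and 0.08, 0.17 and 0.16 in met-2, 20.9% of the N2 value (exact permutation p = 0.1, adjusted 0.19). The mean of the centre was -0.54 ± 0.10 in N2 against -0.05 ± 0.03 in met-2 (SD, n = 3).

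In some measures of the arm, the libraries labelled set-25 split as the check on chromosome III had split them. Tested against their own input, they had 260 enriched arm bins, 51.0% against 29.0% of all bins, and 106 depleted ones, 20.8% against 43.7%, so that 71.8% of the arm and 72.7% of all bins passed. Their arm means were 0.09, 0.16 and 0.14 for columns a to c and overlapped the N2 range of 0.10 to 0.19 (difference -0.01, exact permutation p = 0.9). On median-centred libraries the arm mean differed from N2 by -0.16 without overlap (exact permutation p = 0.1). The outer minus inner value was 0.43 in column a, inside the N2 range, and 0.25 and 0.21 in columns b and c, which lie between N2 and the highest met-2 value of 0.17. The SD over bins was 0.48, 0.38 and 0.33. Neither measure separated the group from N2 (exact permutation p = 0.2 and 0.3), and with column a as the only library labelled set-25 the gradient differed from N2 by 0.00026. From 1000001 to 1500000 columns a to c lay close, at 0.25, 0.24 and 0.21. N2 column a also stood apart from N2 columns b and c in the distance from the V centre, at 0.84 against 0.59 and 0.60. The column letter and the missing chromosome III interval cannot be told apart here.

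For the label set-25 against N2, 72 of the 510 arm bins passed in limma, with 36 higher and 36 lower, or 14.1% of the arm against 30.4% of all bins. Over all bins 19.8% were higher and 10.6% lower. On median-centred libraries 101 arm bins passed, 5 higher and 96 lower. That is 19.8% of the arm against 19.5% of all bins, with 3.02% of all bins higher and 16.4% lower. The median bin of the genome was 0.18 higher than in N2 on the deposited scale, and the median arm bin differed by -0.01. The count rested on few libraries. It was 3 without N2 column a, 1 without column b and 3 without column c labelled set-25, 38 and 45 without N2 columns b and c, 36 without met-2 column b, since all groups share 1 estimate of spread, and 136 without column a labelled set-25. With column a alone, limma called 0 arm bins, and 32 had an unadjusted p under 0.05.

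The higher bins lay mostly at the inner end, and the lower ones were spread more widely. The innermost segment held 28 of the 36 higher bins. Its value was -0.46 in column a, just above the N2 libraries at -0.66 to -0.55, and -0.10 and -0.08 in columns b and c, within the met-2 range of -0.11 to -0.03. The outermost segment held 14 of the 36 lower bins, where columns a to c were at 0.62, 0.45 and 0.37 and N2 at 0.64 to 0.79. From 1500001 to 2000000 the libraries labelled set-25 were at 0.27, 0.32 and 0.26, overlapping N2 at 0.23 to 0.29 on the deposited scale. On median-centred libraries they were at 0.47, 0.42 and 0.34, below N2 at 0.60, 0.48 and 0.51, and the difference changed sign from 0.03 to -0.12. On the deposited scale the met-2 libraries, at 0.11 to 0.19, lay below both.

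Lists of the most changed single bins only partly matched between these libraries and met-2. The bin from 3560001 to 3570000 was at 0.25, 0.17 and 0.03 in N2 and at -0.52, -0.65 and -0.38 in columns a to c labelled set-25, a change of -0.66 (SE 0.13, limma adjusted p = 0.00474). It was at -0.13, -0.39 and -0.49 in met-2, so all 6 mutant libraries lay below input and all 3 N2 libraries above it. The bin from 1200001 to 1210000 also crossed input level, from 0.30, 0.19 and 0.27 to -0.22, -0.39 and -0.19. In met-2 it was at -0.04, -0.07 and -0.18 on the deposited scale. That from 5190001 to 5200000 was at -0.37, -0.42 and -0.34, against -0.03 to 0.12 in N2 and -0.02 to 0.17 in met-2. In the bins that start at 3560001, 1200001 and 5190001, column a moved with columns b and c. The bins from 950001 to 960000 and 780001 to 790000, also among the largest falls in met-2, fell by 0.50 and 0.48. The bins that start at 4580001, 2650001 and 1880001 fell by 0.43, 0.41 and 0.38.

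Without overlap with N2, 31 higher and 36 lower arm bins passed, and these served only for naming bins. The same count was not made over all bins, of which 19.8% passed as higher and 10.6% as lower in limma. The spacing of at least 100 kb left 7 rises to name. The largest, from 5570001 to 5580000, was at -0.89, -0.76 and -0.68 in N2 and at -0.40, -0.14 and -0.18 in columns a to c labelled set-25, a change of 0.54 (SE 0.14, limma adjusted p = 0.0171). The bins that start at 5680001, 5780001, 5050001, 5880001 and 4890001 rose by 0.36 to 0.52, with column a lower than columns b and c in each. The bin from 1620001 to 1630000 was the exception in place and pattern. It was at 0.43, 0.41 and 0.38 in columns a to c, whereas values were 0.05 to 0.18 in N2 and 0.10 to 0.23 in met-2, and rose by 0.29. Of the 15 named bins of this comparison, 10 passed on median-centred libraries, 2 without N2 column a, 1 without column b labelled set-25, 2 without column c and 0 with column a alone, although all kept their direction.

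Bins 100 kb apart correlated at 0.28 in column a labelled set-25 and at 0.06 and 0.09 in columns b and c, against at least 0.34 in N2. The slope of the profile on N2 was 0.94 for column a and 0.73 for the mean of the 3 columns. The distance from the V centre was 0.53, 0.36 and 0.29 for columns a to c, below all N2 libraries (exact permutation p = 0.1, adjusted 0.19). The distance from the 9 other arms was -0.21, -0.03 and 0.01, so columns b and c were at the met-2 level and column a was near the N2 libraries.

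Between met-2 and the libraries labelled set-25, limma called 0 of 510 arm bins, while 74 had an unadjusted p under 0.05. Over all bins 0.419% passed, 0.389% higher in met-2 and 0.0299% lower. By voom on recovered reads 14 arm bins passed, 6 higher and 8 lower in met-2. With column a as the only library labelled set-25, 35 passed, 16 higher and 19 lower, a count that cannot tell that library from its strain. The outer minus inner difference differed by -0.16 in met-2 minus set-25, without overlap (exact permutation p = 0.1, adjusted 0.19). In the segments from 500001 to 2300000 and from 3000001 to 3500000, every met-2 library was lower than every library labelled set-25, with mean differences of -0.18 to -0.08. In the other 6 segments they overlapped, and segments outside the arm were not counted. The arm means overlapped, at a difference of -0.04 (exact permutation p = 0.3).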

How the data were processed

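The authors deposited 1 table of log2 values in windows of 500 bp, with 1 column for each of 18 libraries. Per the submitters' processing notes the build is ce10, but the table's chromosome ends are those of another build, so its coordinates are printed as given and no bin was assigned to a gene or sequence. Aligner, counting and handling of duplicates remain unnamed, not given in the sources used here. From the values, each deposited log2 value is that of scaled reads plus 2, and whole reads were recovered for 100.0% of values within 0.01. All libraries were scaled to the same total, so a change in one place is balanced elsewhere. Columns carry letters and no replicate numbers.

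Window values were averaged in bins of 10 kb, split at the arm's inner end. The test per bin was limma (version 3.58.1, R 4.3.3; trended empirical Bayes, 6 group coefficients, all 18 libraries, threshold 0.05), after a test on simulated data. Arm measures were compared by exact two-sided permutation tests over libraries. Centres and other arms were bounded by the recombination map, without the outermost 500 kb. Named bins were the 5 highest and 5 lowest in N2, and up to 8 rises and 8 falls per strain pair past adjusted p 0.05 without overlap between libraries, at most 1 per 100 kb. Members, lists and tests were chosen with earlier results of these data known. Alternatives were median-centring, the column letter as a block, bins of 5 and 20 kb, input filters (50 to 200% of the median bin; input within 0.3 between strains), an offset of 10, voom, fits of the compared groups, medians over bins, the left-out segment, and leaving out libraries. Python 3.11.15, numpy 2.4.6, pandas 2.3.3 and matplotlib 3.10.9 were used.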

Additional observations from a re-analysis of the deposited data

Results flagged for a closer look

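In 5 of the named bins every N2 library lay above input and every library of the compared mutant below it, on the deposited scale. In met-2 against N2 these were the bins from 2620001 to 2630000, with a change of -0.53, and from 2080001 to 2090000, with -0.50. In libraries labelled set-25 against N2 they were the bins from 3560001 to 3570000, with -0.66, from 1200001 to 1210000, with -0.52, and from 4580001 to 4590000, with -0.43. Every met-2 library also lay below input in the bins that start at 3560001 and 1200001, but not in that from 4580001. The difference between the strains passed in limma in each of the 5 at adjusted p under 0.05, as the choice of named bins required. Input level is relative to the library total. On median-centred libraries all 5 kept their direction and passed, and the 3 bins of the set-25 comparison still lay on opposite sides. The 2 bins of the met-2 comparison did not: columns b and c of met-2 were at 0.03 and 0.06 in the first, and column c at 0.02 in the second. The 3 calls of the set-25 comparison come from a list of 15 named bins, of which 1 to 15 passed when 1 column was left out.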

How the results depend on the processing

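Of 132 recomputed shares of arm bins, 110 were within 1.5 times of the value reported, 14 lower and 8 higher. The permutation tests of the arm measures could not pass 0.05 under any setting. For met-2 against N2 the share of arm bins that passed was 38.8%, and 60.0% on median-centred libraries. For libraries labelled set-25 against N2 it was 14.1%, and 6.27% in bins of 5 kb (64 bins), 6.67% with only the compared groups, 9.36% without the innermost segment, and 0 without columns b and c, also without N2 column a. For met-2 against libraries labelled set-25 it was 0%, and 2.75% by voom, 6.86% without columns b and c and 16.7% with N2 column a left out too. The cause of these moves was not tested.

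Leaving out 1 column at a time gave 24.7% to 45.1% for met-2 against N2, 0.196% to 26.7% for libraries labelled set-25 against N2, 0 to 0.588% for met-2 against them, and 26.5% to 63.3% for met-2 IP against input. The arm mean difference of libraries labelled set-25 from N2 ranged from -0.023 to 0.0208, and the distance from other arms in met-2 minus libraries labelled set-25 from -0.0053 to 0.10. With only column a of the label set-25, the outer minus inner difference from N2 was 0.00026. With N2 column a left out too it was 0.0279, and the SD difference was 0.0011. The columns carry letters and not the replicate numbers of the labels. A fit with the letter as a replicate block, added after seeing the data, gave 38.6% for met-2 against N2, 14.1% for the label set-25 against N2 and 0% between the mutants. Of 45 same-letter pairs of libraries from different groups, 20 had deviations correlated above 0.1, and 19 were best with their own letter. The kinds differed. Of 9 pairs of inputs 7 were above 0.1, with a median of 0.64, and 5 were best with their own letter. Of 9 pairs of IP libraries these counts were 3 and 2, and of 27 pairs of IP with input 10 and 12. The letters were not used as pairs in the main fit, and whether inputs of a letter share a batch was not tested. met-2 IP b, at 8725588 reads, limits single windows most.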
